A study of Mus musculus with 12 samples.

Results

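The 37 sterol and fatty acid synthesis genes described here are 24 genes of cholesterol synthesis and of its control by sterol regulatory element-binding proteins (SREBPs), and 13 genes that make, lengthen or desaturate fatty acids. They were chosen by symbol from the 20587 genes of a normalized count table, and all 37 were among the 11663 protein-coding genes tested. The cells were 4T1, a line from a mouse mammary carcinoma, and RNA sequencing covered 4 groups of 3 cultures each to compare serine and glycine (SG) starvation, radiation and both together. IR -SG cells were starved of both amino acids and given 5 Gy of X-rays, IR cells received 5 Gy in medium with serine and glycine, -SG cells were starved and not irradiated, and control cells (Ctr) had both amino acids and no radiation. RNA was taken 24 h after irradiation. All groups shared a defined medium with dialysed fetal bovine serum, and all libraries came from 1 experiment on 1 cell line, so the p-values rest only on how its cultures varied.

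Cholesterol is built from acetyl-CoA through mevalonate, farnesyl diphosphate, squalene and lanosterol, and saturated fatty acids are built from acetyl-CoA through malonyl-CoA. Most enzymes of both routes are transcribed under SREBPs, which SCAP escorts from the endoplasmic reticulum to the Golgi for cleavage when sterols are low and which INSIG proteins hold back when sterols are high. SREBP-2 is known mainly for the sterol genes and SREBP-1 for the fatty acid genes, and rapidly growing carcinoma cells often run both routes at a high rate.

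Reads in genes ranged from 12540160 to 20066659 per library (median 16718006). Values are normalized counts, that is reads divided by 1 size factor per library, and changes are log2 fold changes of (normalized count + 1) from limma, with p-values adjusted over all 11663 genes by the Benjamini-Hochberg method. Genes with an adjusted p under 0.05 are called risen or fallen. Of the epithelial markers, all 5 were measured and summed to 54793 to 56450 normalized counts in IR -SG, 45340 to 46350 in IR, 55325 to 60226 in -SG and 44197 to 44450 in Ctr. The sum, Epcam, Krt8, Krt19 and Cdh1 were higher in each starved group than in its fed counterpart, whereas Krt18 had 11949 to 12122 normalized counts in IR -SG, against 13519 to 13906 in IR, and 13783 to 15623 in -SG, overlapping with 15043 to 15402 in Ctr. Markers of other cells were low: of the leukocyte list Ptprc (CD45), the 1 of 4 measured, was at most 6.3 normalized counts, of the adipocyte list Fabp4, the 1 of 5 measured, at most 11.6, and 2 of 3 endothelial markers summed to at most 16.8. The 4 fibroblast markers, mainly Pdgfra, summed to 413 to 465 normalized counts in IR -SG, 494 to 534 in IR, 253 to 333 in -SG and 201 to 305 in Ctr. The part of these differences in the members' values was not tested. The library -SG replicate 6 stood apart from the other -SG libraries (chi-square per gene 7.76 and 12.2, against 1.51 to 3.29 for the other replicate pairs). The members' deviations there from the mean of the other -SG libraries had a median of 0.03 log2 units and an SD of 0.171. With each library set against the others of its group, this SD was the largest of the 12 (0.0464 to 0.136 in the others).

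Starvation of serine and glycine lowered most of these genes. In -SG cells 33 of 37 members fell against Ctr and 2 rose, while 28.6% of all tested genes fell and 30% rose. The median change of the members was -0.78, or 0.584-fold, beside 0.01 for all tested genes, and 10 of 37 members were at less than 1/2 of their Ctr level, against 1.68% of all tested genes. Normalized counts of -SG and Ctr libraries did not overlap for 35 of the 37 members, as for 61.2% of all tested genes. The largest falls were in the desaturases Scd1 (-1.76) and Scd2 (-1.51), the lanosterol synthase Lss (-1.53), and the SREBP brake Insig1 (-1.47). In the GRCm38 genome with GENCODE M21 annotation these genes are Scd1 (ENSMUSG00000037071, chr19:44394455-44407879) and its neighbour Scd2 (ENSMUSG00000025203, chr19:44293674-44306864), Lss (ENSMUSG00000033105, chr10:76531588-76557138) and Insig1 (ENSMUSG00000045294, chr5:28071363-28078662). The 2 members that rose were the second brake, Insig2 (ENSMUSG00000003721, chr1:121304353-121332589), and the sterol isomerase Ebp (ENSMUSG00000031168, chrX:8185329-8193512). The call for Ebp was lost when either Ctr replicate 3 or -SG replicate 6 was left out (adjusted p = 0.0577 and 0.0869), which leaves 1 riser, Insig2.

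**Figure D1:**
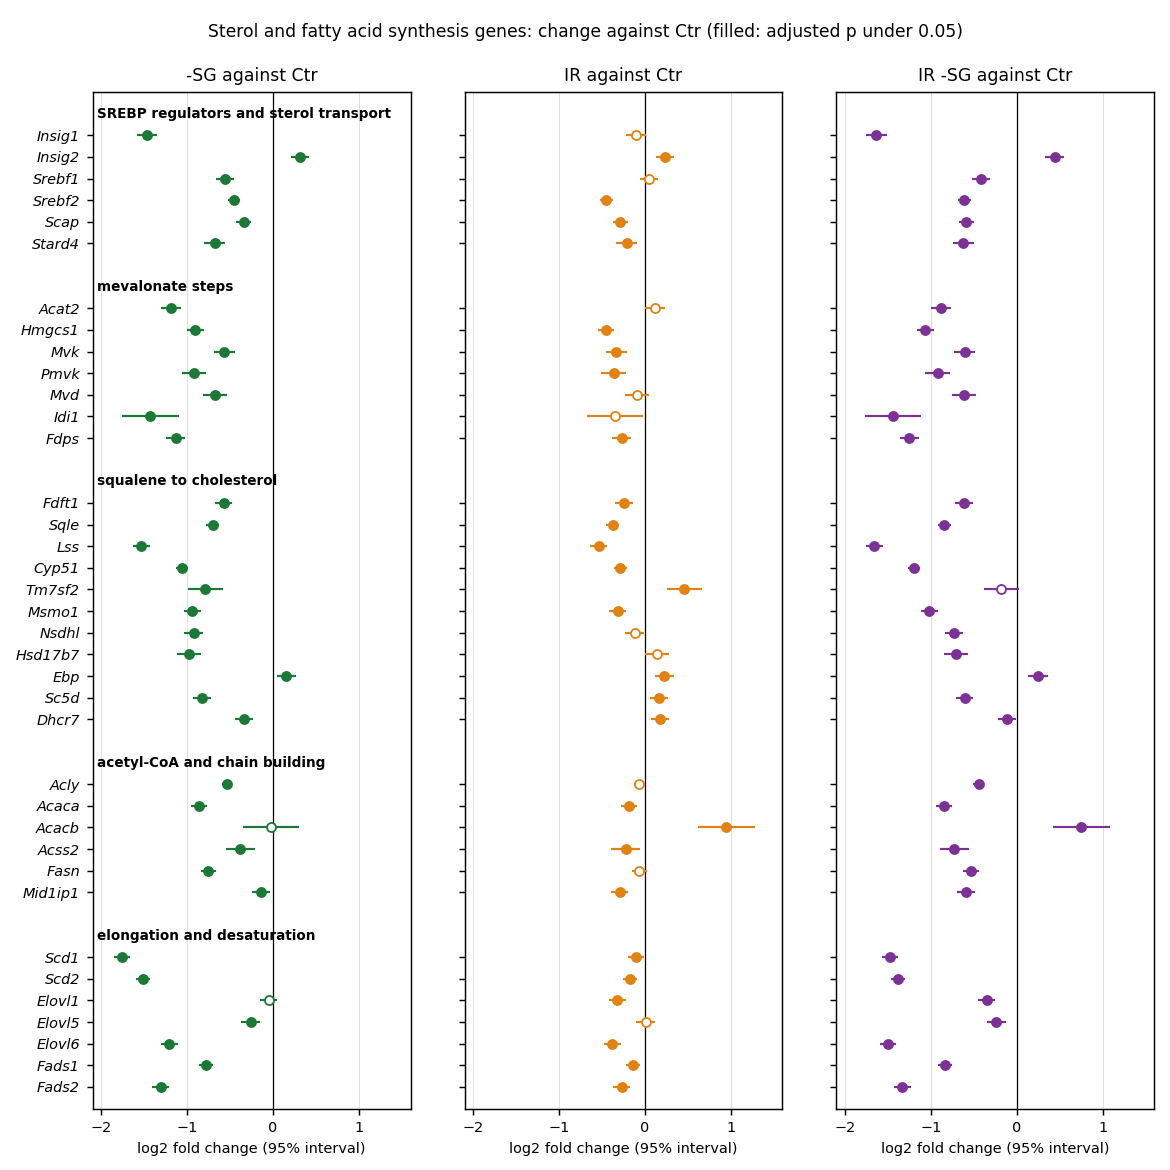
Log2 fold change against Ctr of each of the 37 members (rows, grouped by role) in -SG, IR and IR -SG cells, with the 95% interval of the limma fit and filled points for an adjusted p under 0.05. Most points of the -SG and IR -SG panels lie left of 0, with medians of -0.78 and -0.71, while those of the IR panel lie nearer to 0 on both sides, with a median of -0.18. The 3 panels share the same 3 Ctr libraries.

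The promoters of the members were read in windows of 250 bases before to 50 after the annotated start, from RefSeq (GRCm38.p6), for the 30 members that have one there; Fdps, Fdft1, Sqle, Stard4, Scd1, Scd2 and Fads1 were not matched. On both strands, CCAAT, the site of the SREBP partner NF-Y, was in a promoter of 24 of 30 member genes (80%), against 43.4% of 9322 tested genes. GGGCGG, an Sp1 site, was in 24 of 30 (80%), against 70.5% of tested genes. The sterol regulatory element in the form TCACNCCAC was in 1 of 30 (3.33%), Hmgcs1, against 1.32% of tested genes. Windows of 5 genes are shown to set members that fell beside one that did not. They are the 140 bases before the start of Hmgcs1 (chr13:119690211-119690350, plus strand), Mvd (chr8:122443423-122443562, minus strand), Sc5d (chr9:42264301-42264440, minus strand), Fasn (chr11:120824548-120824687, minus strand) and Ebp (chrX:8193513-8193652, minus strand), with CCAAT or its reverse complement ATTGG in capitals, and in Hmgcs1 also the sterol regulatory element:
Hmgcs1: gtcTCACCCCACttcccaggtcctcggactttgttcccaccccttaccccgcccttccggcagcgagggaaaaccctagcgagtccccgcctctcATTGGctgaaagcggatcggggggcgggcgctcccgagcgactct
Mvd: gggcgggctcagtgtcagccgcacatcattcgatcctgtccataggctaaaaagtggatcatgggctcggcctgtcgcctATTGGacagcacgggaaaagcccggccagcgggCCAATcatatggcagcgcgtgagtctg
Sc5d: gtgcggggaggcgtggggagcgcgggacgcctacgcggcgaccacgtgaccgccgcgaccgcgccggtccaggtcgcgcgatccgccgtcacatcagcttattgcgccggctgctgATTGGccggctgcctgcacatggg
Fasn: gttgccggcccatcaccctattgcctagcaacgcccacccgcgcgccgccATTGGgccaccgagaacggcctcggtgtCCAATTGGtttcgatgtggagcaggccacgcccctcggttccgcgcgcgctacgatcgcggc
Ebp: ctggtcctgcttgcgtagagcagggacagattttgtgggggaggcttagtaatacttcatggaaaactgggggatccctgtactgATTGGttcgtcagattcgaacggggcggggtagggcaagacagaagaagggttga
In these windows Hmgcs1, Sc5d and Ebp have 1 CCAAT match each, Mvd has 2 and Fasn has 3, of which 2 overlap on opposite strands. A CCAAT match was present before Ebp, which rose in -SG cells, as well as before the others, which fell. The rise of Ebp lost its call under 5 of 24 alternative settings. Over the 24 members with a CCAAT match the median change in -SG cells was -0.71. It was -1.03 over the 6 members whose promoters had none, and -0.78 over the 7 that were not matched to a promoter. The part of the CCAAT match in these changes was not tested. Matches are a description of the letters and do not show binding.

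Among the SREBP regulators and sterol transport genes, 5 of 6 fell and 1 rose in -SG cells, beside 28.6% and 30% of all tested genes. Srebf2, which encodes SREBP-2, had 4553, 4368 and 4605 normalized counts in -SG libraries, against 6209, 6234 and 6090.4 in Ctr. It had 4143, 4134 and 3863 in IR -SG libraries, against 4492, 4478 and 4580.2 in IR. Every treated library was below every Ctr library, and starvation and radiation alone gave falls of like size (-0.45, SE 0.035, adjusted p = 1.34e-08 in -SG, and -0.45, SE 0.035, adjusted p = 2.82e-08 in IR), with a somewhat larger fall in IR -SG (-0.61, SE 0.035, adjusted p = 1.9e-10). Srebf1, which encodes SREBP-1, had 2364, 2157 and 2379 normalized counts in -SG libraries, against 3428, 3351 and 3372 in Ctr. It had 2669, 2587 and 2349.9 in IR -SG libraries, against 3391, 3527 and 3549 in IR. Both starved groups lay below both fed groups (-0.56, SE 0.048, adjusted p = 4.98e-08 for -SG against Ctr), whereas IR libraries overlapped with Ctr (0.04, SE 0.048, adjusted p = 0.461).

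Scap, the sterol-sensing escort of SREBPs, had 2083, 2029 and 2178 normalized counts in -SG libraries, against 2649, 2643 and 2678 in Ctr. It had 1797, 1817 and 1692 in IR -SG libraries, against 2105, 2256 and 2181 in IR. Its level was lowest with both treatments (-0.59 for IR -SG, -0.29 for IR and -0.34 for -SG), and all 3 groups were below every Ctr library. Insig1, itself a well-known SREBP target, had 836, 784 and 742 normalized counts in -SG libraries, against 2211, 2163 and 2149 in Ctr. It had 759, 696 and 648 in IR -SG libraries, against 2065, 2009 and 1976 in IR. The fall with starvation was thus among the largest of the members (-1.47, SE 0.056, adjusted p = 2.18e-12 in -SG), and the change with radiation alone did not pass the test (-0.11, SE 0.056, adjusted p = 0.11). It passed with the replicate number as a block (adjusted p = 0.0483), with only the groups compared in the fit (adjusted p = 0.00866) and without -SG replicate 6 (adjusted p = 0.0461).

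Insig2, which binds SCAP as Insig1 does, had 861, 874 and 808 normalized counts in -SG libraries, against 669, 684 and 689.6 in Ctr. It had 937, 903 and 931 in IR -SG libraries, against 758, 849 and 795 in IR. The paralogs therefore moved in opposite directions in starved cells, with every Insig2 library above every Ctr library with starvation (0.31, SE 0.051, adjusted p = 5.45e-05), with radiation (0.23, SE 0.051, adjusted p = 0.0011) and with both (0.44, SE 0.051, adjusted p = 9.2e-07). Per kilobase of exon, the mean Insig1 level was 255 in -SG and 703 in Ctr, and that of Insig2 244 in -SG and 196 in Ctr, so the 2 levels were near each other in -SG cells. Stard4, a cytosolic sterol carrier, fell with starvation (-0.68), with radiation (-0.21) and with both (-0.62). Its normalized counts were 902 to 1061 in -SG, against 1547 to 1626 in Ctr, and 1019 to 1076 in IR -SG, against 1307 to 1449 in IR.

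**Figure D2:**
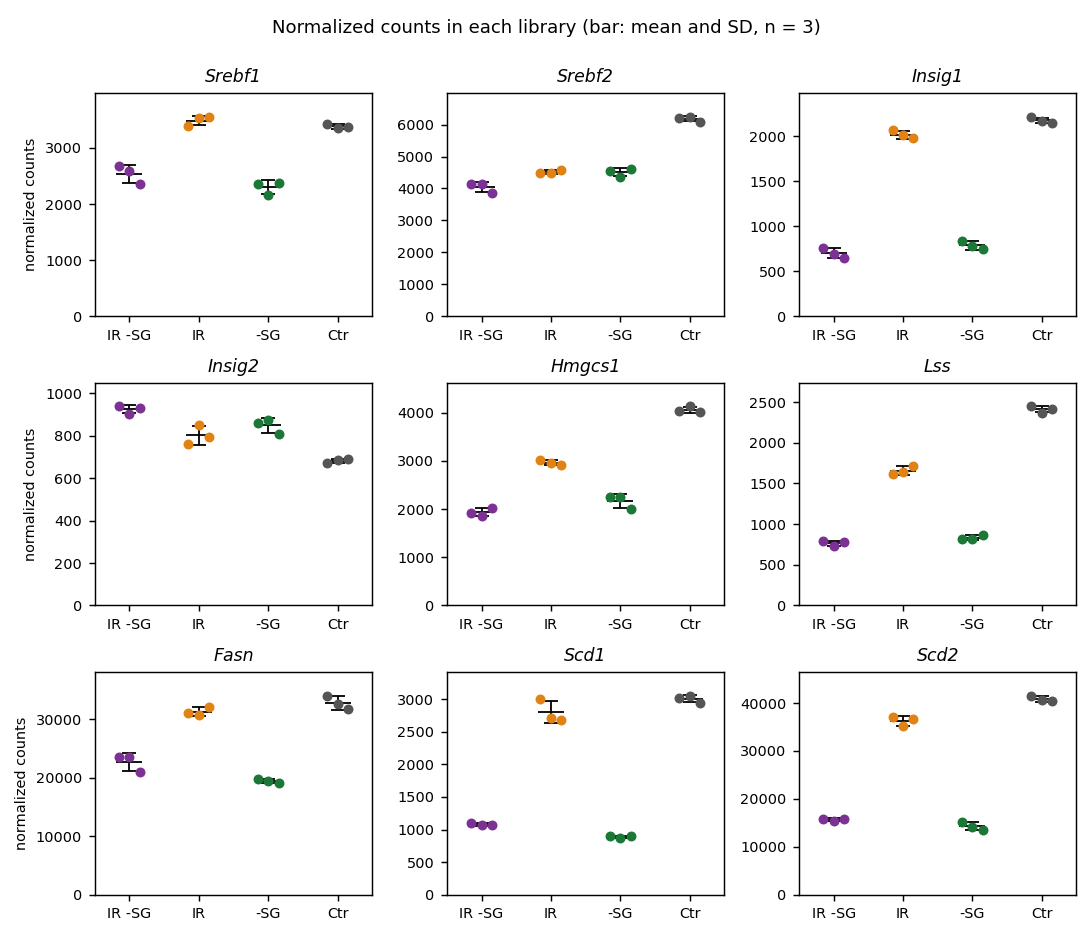
Normalized counts of 9 members in each library of IR -SG, IR, -SG and Ctr, with the mean and SD (n = 3) as bars. Both starved groups are low for Insig1, Hmgcs1, Lss, Fasn, Scd1 and Scd2, while Insig2 is lowest in Ctr and Srebf2 is highest in Ctr.

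All 7 genes of the mevalonate steps fell in -SG cells, beside 28.6% of all tested genes. The 7 changes lay between -0.57 for the mevalonate kinase Mvk and -1.43 for the isopentenyl diphosphate isomerase Idi1. Acat2, which joins 2 acetyl-CoA in the cytosol, had 707, 668 and 734 normalized counts in -SG libraries, against 1549, 1745 and 1532 in Ctr. It had 848, 869 and 903 in IR -SG libraries, against 1671, 1785 and 1781 in IR. Acat2 thus fell with starvation in both arms (-1.19, SE 0.055, adjusted p = 2.55e-11 for -SG against Ctr, and adjusted p = 3.39e-10 for IR -SG against IR), and was higher in IR -SG than in -SG (0.31, SE 0.055, adjusted p = 0.000266). Hmgcs1, the cytosolic HMG-CoA synthase and a classical SREBP-2 target, had 2240.5, 2260.03 and 2002 normalized counts in -SG libraries, against 4025, 4128 and 4016 in Ctr. It had 1927, 1863 and 2019 in IR -SG libraries, against 3023, 2958 and 2915 in IR. No library of a treated group reached a Ctr library, and the falls were -0.91, SE 0.046, adjusted p = 7.31e-11 in -SG and -0.45, SE 0.046, adjusted p = 5.77e-07 in IR.

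Pmvk, the phosphomevalonate kinase, had 478, 472 and 535 normalized counts in -SG libraries, against 899.8, 941 and 970.2 in Ctr. It had 516, 524 and 444 in IR -SG libraries, against 704, 734 and 745 in IR. Radiation lowered it in complete medium (-0.36, SE 0.067, adjusted p = 0.000275), whereas IR -SG and -SG libraries overlapped (0.00, SE 0.067, adjusted p = 0.973). Mvk fell in IR as well (-0.33), and its normalized counts were 547 to 628 in -SG, against 870.4 to 897 in Ctr, and 555 to 603 in IR -SG, against 668 to 722 in IR. All 3 treated groups of Mvk were thus below Ctr. The mevalonate diphosphate decarboxylase Mvd, with 446 to 542 normalized counts in -SG, against 773 to 808 in Ctr, and 495 to 548 in IR -SG, against 718 to 760.5 in IR, fell in -SG (-0.67) and its change of -0.09 in IR did not pass the test. Fdps, the farnesyl diphosphate synthase, with 449 to 466 normalized counts in -SG, against 948 to 1050.2 in Ctr, and 411 to 439 in IR -SG, against 827 to 851 in IR, fell in -SG (-1.13) and in IR (-0.27). Idi1 was the most variable of the 7, with 197, 172 and 115 normalized counts in -SG libraries, against 412, 377 and 498 in Ctr, and its change of -0.35 in IR missed the threshold by limma (adjusted p = 0.0659) but passed by edgeR (adjusted p = 0.0187) and DESeq2 (adjusted p = 0.0161). It also passed by limma without Ctr replicate 2 (adjusted p = 0.0494), -SG replicate 4 (adjusted p = 0.0408) or -SG replicate 6 (adjusted p = 0.00373).

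Of the 11 genes from squalene to cholesterol, 10 fell and 1 rose in -SG cells, beside 28.6% and 30% of all tested genes. Fdft1, the squalene synthase that commits carbon to sterols, had 1209, 1124 and 1298 normalized counts in -SG libraries, against 1834, 1804 and 1764 in Ctr. It had 1192, 1145 and 1181 in IR -SG libraries, against 1516, 1564 and 1479.8 in IR. Libraries of -SG, IR and IR -SG were all below Ctr (-0.58, SE 0.048, adjusted p = 3.83e-08 for -SG). Sqle, the squalene epoxidase and a rate-limiting step, had 2661, 2689 and 2578 normalized counts in -SG libraries, against 4243, 4284 and 4348 in Ctr. It had 2478, 2306 and 2385 in IR -SG libraries, against 3298, 3366 and 3245 in IR. Sqle fell in -SG (-0.70, SE 0.035, adjusted p = 7.91e-11) and in IR (-0.38, SE 0.035, adjusted p = 2.56e-07), and was lowest in IR -SG, whose libraries were below those of both single treatments.

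Lss, which closes the sterol ring system, had 815, 820.2 and 868 normalized counts in -SG libraries, against 2447, 2371 and 2419.8 in Ctr. It had 786, 726 and 781 in IR -SG libraries, against 1618, 1644 and 1714 in IR. Lss had the largest fall of any member with radiation alone (-0.54, SE 0.044, adjusted p = 5.56e-08) and with both treatments (-1.66, SE 0.044, adjusted p = 2.75e-14), and the groups did not overlap. Cyp51, the lanosterol demethylase, had 1810.5, 1782 and 1749 normalized counts in -SG libraries, against 3739, 3768 and 3634 in Ctr. It had 1630.3, 1595 and 1629 in IR -SG libraries, against 3030.2, 2999 and 3110.2 in IR. The fall was again larger in -SG (-1.06, SE 0.034, adjusted p = 3.15e-13) than in IR (-0.29).

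Tm7sf2, a sterol C14 reductase, had 125, 99.9 and 128 normalized counts in -SG libraries, against 214, 199 and 195 in Ctr. It had 172, 187 and 177 in IR -SG libraries, against 271, 294 and 271 in IR. It fell in -SG (-0.79, SE 0.095, adjusted p = 2.51e-06), rose in IR (0.46, SE 0.095, adjusted p = 0.000734) and was -0.18 in IR -SG against Ctr, which missed the threshold (adjusted p = 0.0985), but was -0.33 and passed under quantile normalization (adjusted p = 0.00522), and passed without -SG replicate 5 (adjusted p = 0.0465). Ebp, the sterol isomerase, had 780.1, 761 and 869 normalized counts in -SG libraries, against 722, 727 and 711 in Ctr. It had 849, 863 and 851 in IR -SG libraries, against 819, 883 and 825 in IR. All libraries of the 3 treated groups were above Ctr (0.16 with starvation, 0.23 with radiation and 0.25 with both).

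The C4 demethylation enzymes Msmo1 (-0.94), Nsdhl (-0.92) and Hsd17b7 (-0.98) fell in -SG cells, as did the last 2 enzymes of the Kandutsch-Russell route among the members, Sc5d (-0.83) and Dhcr7 (-0.34). Msmo1 had 1937 to 2173 normalized counts in -SG, against 3907 to 4054 in Ctr, and 1852 to 2067 in IR -SG, against 3143 to 3250.1 in IR. Nsdhl had 649.5 to 698 normalized counts in -SG, against 1248 to 1303 in Ctr, and 729.8 to 826 in IR -SG, against 1156 to 1211 in IR. Hsd17b7 had 398 to 495 normalized counts in -SG, against 857 to 915 in Ctr, and 538 to 552 in IR -SG, against 952 to 1002 in IR. For these 3 genes no starved library reached a fed one. Sc5d had 841 to 919 normalized counts in -SG, against 1502 to 1586 in Ctr, and 954 to 1069 in IR -SG, against 1699 to 1769.8 in IR. Dhcr7 had 1095 to 1222 normalized counts in -SG, against 1440.2 to 1508 in Ctr, and 1329.9 to 1389 in IR -SG, against 1546 to 1714 in IR, the narrowest gap between starved and fed cells among the 5. In IR cells Msmo1 fell (-0.32), Sc5d (0.16) and Dhcr7 (0.17) rose, and Nsdhl (-0.12) and Hsd17b7 (0.14) did not pass the test. The small rise of Sc5d in IR missed the threshold without Ctr replicate 3 (adjusted p = 0.0589) or without IR replicate 1 (adjusted p = 0.0504). In IR -SG cells Dhcr7 was -0.11 against Ctr, a call that was lost under 12 of 24 alternative settings (adjusted p up to 0.244), among them leaving out any 1 Ctr replicate, -SG replicate 4, IR replicate 3 or IR -SG replicates 5 or 6.

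Fatty acid genes fell as well, with 11 of 13 lower and none higher in -SG by limma, also at an unadjusted p under 0.05 and by edgeR and DESeq2. By limma 28.6% of all tested genes were lower in -SG and 30% higher. Acly, which splits citrate to cytosolic acetyl-CoA, had 8399, 8297 and 8225 normalized counts in -SG libraries, against 12107, 12020.1 and 12022 in Ctr. It had 9097, 8676 and 8799 in IR -SG libraries, against 11594, 11266 and 11711 in IR. The starved groups were below the fed groups (-0.54, SE 0.03, adjusted p = 2.06e-10 for -SG), and the change in IR did not pass the test (-0.06, SE 0.03, adjusted p = 0.0756). Acss2, which makes acetyl-CoA from acetate, had 281, 325 and 341 normalized counts in -SG libraries, against 421, 402 and 405 in Ctr. It had 262, 234 and 246 in IR -SG libraries, against 364, 364 and 323 in IR. It was lowest in IR -SG (-0.73, SE 0.079, adjusted p = 4.37e-07), and its fall in IR (-0.23, SE 0.079, adjusted p = 0.0233) missed the threshold without Ctr replicate 1 (adjusted p = 0.0758) or IR replicate 3 (adjusted p = 0.116).

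Acaca, the main cytosolic acetyl-CoA carboxylase, had 1455, 1369 and 1276 normalized counts in -SG libraries, against 2505, 2501 and 2427 in Ctr. It had 1389, 1403 and 1336 in IR -SG libraries, against 2182, 2151 and 2216 in IR. It fell in -SG (-0.86, SE 0.045, adjusted p = 1.11e-10) and less in IR (-0.18, SE 0.045, adjusted p = 0.0027). Acacb, the mitochondrial carboxylase whose product restrains fatty acid oxidation, behaved otherwise, with 50.6, 35.8 and 49.2 normalized counts in -SG libraries, against 44.5, 48.9 and 43.1 in Ctr. It had 75.5, 69.4 and 87.5 in IR -SG libraries, against 103, 79.6 and 84.6 in IR. Both irradiated groups lay above both unirradiated groups (0.95, SE 0.16, adjusted p = 8.96e-05 for IR against Ctr, and 0.77, SE 0.16, adjusted p = 0.000826 for IR -SG against -SG), at the lowest counts of any member.

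Fasn, the fatty acid synthase, had 19819.6, 19450.1 and 19141 normalized counts in -SG libraries, against 34037, 32679 and 31725 in Ctr. It had 23520.00, 23596 and 20952 in IR -SG libraries, against 31142, 30748 and 32099.7 in IR. The fall in -SG was clear of the spread (-0.75, SE 0.042, adjusted p = 2.67e-10), IR libraries overlapped with Ctr (-0.07, SE 0.042, adjusted p = 0.199), and IR -SG was above -SG (0.22, SE 0.042, adjusted p = 0.000614). Mid1ip1, which promotes the polymerization of acetyl-CoA carboxylase, had 731, 705 and 728 normalized counts in -SG libraries, against 797, 802 and 784 in Ctr. It had 519, 534 and 523 in IR -SG libraries, against 664, 669 and 611 in IR. Its fall was largest with both treatments (-0.60, SE 0.048, adjusted p = 1.4e-08). The small fall in -SG (-0.14) lost its call without Ctr replicate 1 (adjusted p = 0.055), Ctr replicate 2 (adjusted p = 0.063) or -SG replicate 5 (adjusted p = 0.0661).

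Of the 7 genes of elongation and desaturation, 6 fell in -SG cells, 4 of them to less than 1/2 of the Ctr level. Of all tested genes 28.6% fell, and 1.68% fell to that extent. Scd1, a stearoyl-CoA desaturase, had 896, 874 and 899 normalized counts in -SG libraries, against 3022, 3053 and 2946 in Ctr. It had 1097, 1066 and 1072 in IR -SG libraries, against 2996, 2711 and 2687 in IR. Scd1 had the largest fall of any member in -SG (-1.76, SE 0.043, adjusted p = 1.26e-14), a 0.296-fold level, while IR overlapped with Ctr, and the small change there (-0.11, SE 0.043, adjusted p = 0.0492) lost its call under 15 of 25 alternative settings (adjusted p up to 0.198), among them leaving out any 1 Ctr or IR -SG replicate, IR replicates 2 or 3 or -SG replicate 4. Scd2, the paralog that was the most abundant member, had 15188, 14213 and 13548 normalized counts in -SG libraries, against 41527, 40573 and 40364 in Ctr. It had 15860.1, 15418 and 15777 in IR -SG libraries, against 37006, 35144 and 36596 in IR. Starvation thus lowered both desaturases (-1.51, SE 0.038, adjusted p = 1.46e-14 for Scd2 in -SG), and the groups did not overlap for Scd2. Its fall in IR (-0.17, SE 0.038, adjusted p = 0.00114) was -0.02 and lost its call under quantile normalization (adjusted p = 0.746).

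Elovl6, which lengthens palmitate to stearate, had 1763, 1823 and 1663 normalized counts in -SG libraries, against 4045, 4198 and 3862 in Ctr. It had 1456, 1389.5 and 1441 in IR -SG libraries, against 3178, 2977 and 3158 in IR. Its fall was the third largest of the members in IR -SG against Ctr (-1.50, SE 0.044, adjusted p = 6.93e-14). Elovl1, which makes very long saturated chains, had 1251, 1175 and 1263 normalized counts in -SG libraries, against 1249.5, 1283 and 1289.5 in Ctr. It had 969, 975 and 1049 in IR -SG libraries, against 999.9, 1014 and 1043 in IR. Elovl1 thus followed radiation, with overlap of -SG and Ctr (-0.05, SE 0.045, adjusted p = 0.347) and falls in IR (-0.32, SE 0.045, adjusted p = 1.97e-05) and in IR -SG against -SG (-0.30, SE 0.045, adjusted p = 6.82e-05). Elovl5, an elongase of polyunsaturated chains, with 1502 to 1751 normalized counts in -SG, against 1921 to 2034 in Ctr, and 1597 to 1732 in IR -SG, against 1937 to 2001 in IR, fell in -SG (-0.26) and was 0.01 in IR. The polyunsaturated fatty acid desaturases Fads1 (-0.78) and Fads2 (-1.31) fell in -SG and, by less, in IR (-0.14 and -0.27). Fads1 had 1474 to 1585 normalized counts in -SG, against 2606 to 2664 in Ctr, and 1457 to 1525 in IR -SG, against 2331 to 2443 in IR. Fads2 had 2767 to 3017 normalized counts in -SG, against 6953 to 7192 in Ctr, and 2654 to 2931 in IR -SG, against 5626 to 6141 in IR. Neither gene overlapped between starved and fed groups.

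Among the members, the abundant fatty acid genes carried most of the normalized counts. Per kilobase of exon the highest mean levels in Ctr were those of Scd2 (7471 normalized counts per kilobase), Fasn (2998), Acly (2283) and Fads2 (2146), followed by the sterol genes Hmgcs1 (883), Srebf2 (859.95) and Cyp51 (841), and the lowest was Acacb (4.72). The 13 fatty acid genes took 0.356 ± 0.00731% of all normalized counts in IR -SG, 0.593 ± 0.0108% in IR, 0.326 ± 0.00871% in -SG and 0.638 ± 0.0116% in Ctr (SD, n = 3 each). The 24 sterol genes and regulators took 0.173 ± 0.00247% in IR -SG, 0.249 ± 0.00141% in IR, 0.175 ± 0.00237% in -SG and 0.284 ± 0.00164% in Ctr. Scd2 alone took 0.0856 ± 0.00514% of all normalized counts in -SG and 0.238 ± 0.00393% in Ctr. The libraries did not overlap between starved and fed groups for either sum. In bulk RNA, fewer cells that express a gene and less RNA per cell cannot be told apart.

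**Figure D3:**
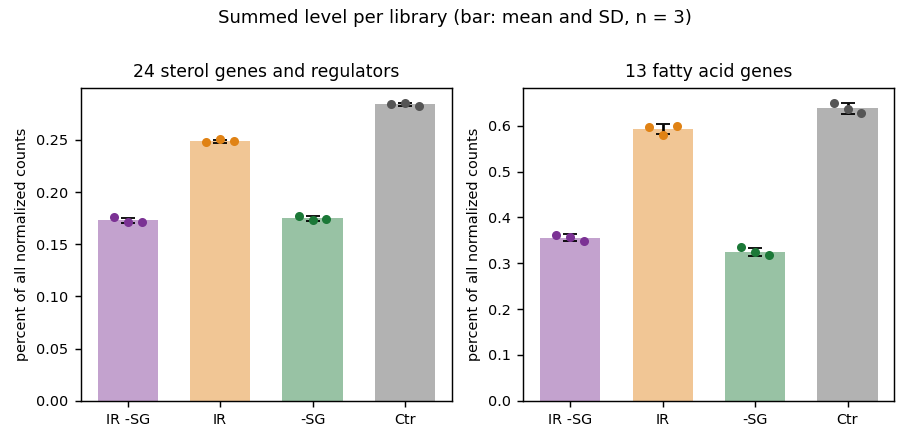
Percent of all normalized counts in a library that fell on the 24 sterol genes and regulators (left) and on the 13 fatty acid genes (right), as points per library and bars for the mean with SD (n = 3). Both sums are lower in IR -SG than in IR and lower in -SG than in Ctr, and the fatty acid sum is the larger of the pair in every library.

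Radiation in complete medium moved the members less and in both directions. In IR cells 21 of 37 members fell against Ctr and 6 rose, while 24.9% of all tested genes fell and 28.9% rose, and the median change of the members was -0.18, or 0.881-fold. None of the 37 reached a fold change of 2 in either direction. Among the 11663 tested genes, 6 (0.0514%) fell and 728 rose by at least 2-fold. Of the 7 genes of the mevalonate steps 4 were lower by limma and 5, with Idi1, by edgeR and DESeq2. None was higher by any of the 3 tools (1 at an unadjusted p under 0.05 by limma, Acat2). Of the 11 genes from squalene to cholesterol 5 were lower and 4 higher. The risers were Acacb, Tm7sf2, Insig2, Ebp, Dhcr7 and Sc5d. Among the changes that did not pass, those of Acat2, Acly, Hsd17b7, Idi1, Insig1 and Nsdhl did under at least 1 alternative setting. All 6 passed by limma without -SG replicate 6 (adjusted p between 0.00373 and 0.0461). That library is in neither IR nor Ctr, but its spread enters the fit shared by the 4 groups. All 6 also passed by limma with only IR and Ctr in the fit (adjusted p between 0.00469 and 0.0396). Libraries of IR and Ctr did not overlap for 32 of 37 members, as for 64.4% of all tested genes.

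With both treatments the members were again mostly low. In IR -SG cells 33 of 37 members fell against Ctr and 3 rose, beside 32.5% and 37.2% of all tested genes, with a median of -0.71, or 0.612-fold, and with no overlap of libraries for all 37 members, as for 76.9% of all tested genes. The risers were Acacb, Insig2 and Ebp, and the largest falls were those of Lss (-1.66), Insig1 (-1.63) and Elovl6 (-1.50). The rise of Acacb (0.75, SE 0.16, adjusted p = 0.000417) missed the threshold under quantile normalization (0.34, adjusted p = 0.0641). Against IR, the effect of starvation in irradiated cells, 33 members fell and 1 rose, beside 28.1% and 28.9% of all tested genes, with a median of -0.56, or 0.679-fold. Insig2 was the riser, and Insig1 (-1.53), Scd1 (-1.37) and Scd2 (-1.21) had the largest falls.

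In starved cells radiation raised about as many members as it lowered. In IR -SG against -SG, 12 of 37 members rose and 11 fell, beside 23.8% and 19.3% of all tested genes, and the members' median was within 0.01 of no change. The largest rises were those of Acacb (0.77), Tm7sf2 (0.60) and Acat2 (0.31), and the largest falls those of Mid1ip1 (-0.46), Acss2 (-0.35) and Elovl1 (-0.30). Fasn (0.22), Scd1 (0.28), Scd2 (0.13), Nsdhl (0.19), Hsd17b7 (0.27), Sc5d (0.22) and Dhcr7 (0.22) rose, while Scap (-0.25), Srebf2 (-0.16), Sqle (-0.15), Cyp51 (-0.14) and Elovl6 (-0.29) fell. Several of the small changes lost their call when 1 library was left out, among them Lss without -SG replicate 6 or IR -SG replicate 5 (adjusted p = 0.0735 and 0.153), and Hmgcs1 without IR -SG replicate 5 (adjusted p = 0.0535). The same held for Srebf1 without -SG replicate 5 or IR -SG replicates 4 or 5 (adjusted p = 0.126, 0.141 and 0.0964), for Insig1 without -SG replicate 4 or IR -SG replicates 5 or 6 (adjusted p = 0.106, 0.0605 and 0.122) and for Acly without IR -SG replicate 4 (adjusted p = 0.0979).

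**Figure D4:**
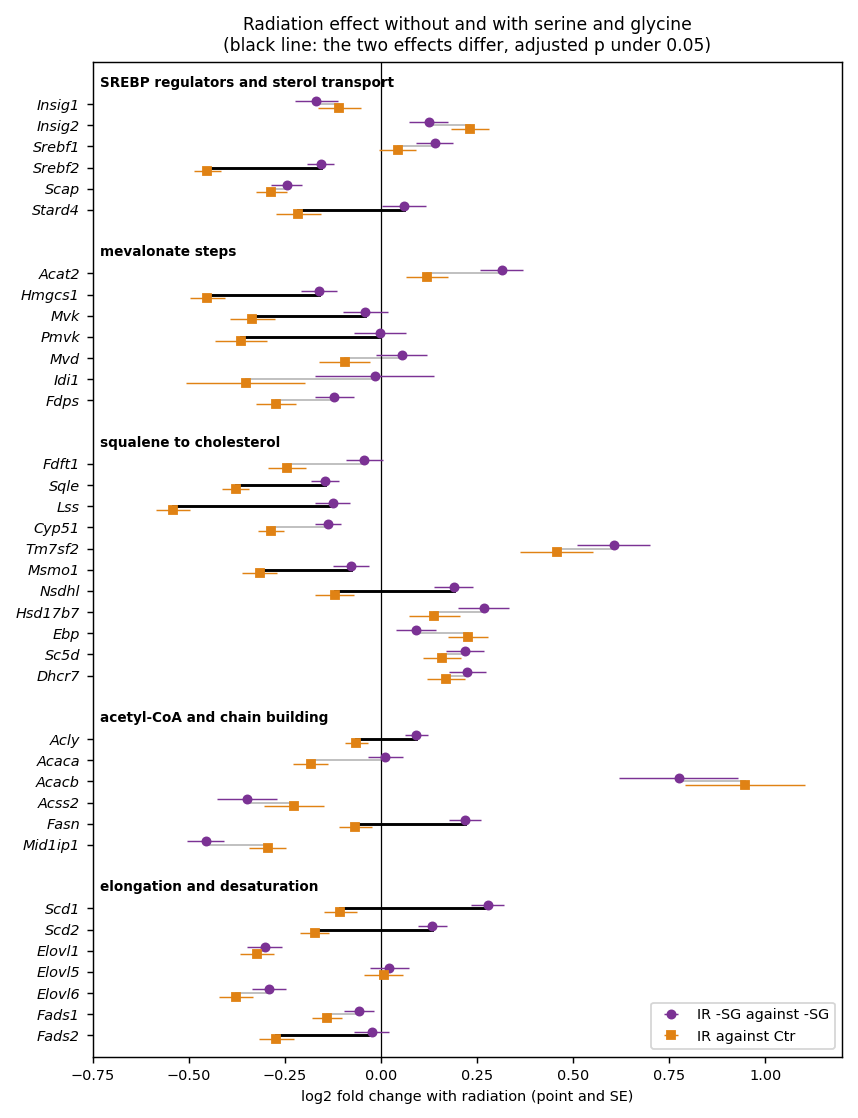
Log2 fold change with radiation of each member without serine and glycine (IR -SG against -SG, circles) and with them (IR against Ctr, squares), with standard errors. Black lines join the 14 members whose 2 effects differ at an adjusted p under 0.05, and in all 14 the circle lies right of the square.

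The radiation effect itself differed between media for 14 of the 37 members. The interaction, which is the radiation effect in -SG medium less that in complete medium, was positive and past the threshold for 14 members (4.2% of all tested genes were) and negative for none by limma (7.17% of all tested genes were), nor by edgeR or DESeq2, with 1 negative value at an unadjusted p under 0.05. The median of the members was 0.15, beside -0.01 for all tested genes. Values were positive for 31 of 37 members, beside 5630 of 11663 tested genes. The largest were those of Lss (0.41, SE 0.063, adjusted p = 0.000458), Scd1 (0.38, SE 0.061, adjusted p = 0.000697) and Pmvk (0.36, SE 0.10, adjusted p = 0.0216). Lss fell by 0.54 with radiation in complete medium and by 0.13 in -SG medium, and Scd1 changed by 0.28 in -SG medium and -0.11 in complete medium. The interaction of Srebf2 was 0.30, SE 0.05, adjusted p = 0.00107, and that of Srebf1 was 0.10, SE 0.068, adjusted p = 0.404. The number of members past the threshold was 9 without Ctr replicate 2 or Ctr replicate 3, 8 without IR -SG replicate 4 and 17 without -SG replicate 6. Hmgcs1, Sqle, Lss, Nsdhl, Srebf2, Fasn, Scd1 and Scd2 kept the call in all 24 alternatives fitted for it, and the other 6 (Mvk, Pmvk, Msmo1, Stard4, Acly and Fads2) lost it in at least 4 each, with adjusted p between 0.0505 and 0.108 there.

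Of 18 genes of SREBP processing and sterol sensing, 7 rose and 5 fell in -SG cells, beside 30% and 28.6% of all tested genes, with a median of -0.02. Tmem97, the sigma-2 receptor and a sterol-regulated protein, had 917, 908 and 995 normalized counts in -SG libraries, against 1863, 1854 and 1940.4 in Ctr, with no overlap and an adjusted p of 2.68e-11. The Golgi anchor of SCAP, Paqr3, rose (0.66, SE 0.13, adjusted p = 0.000298), the coat subunit Sec24a (-0.35) and the ubiquitin ligase Rnf145 (-0.34) fell, and the SREBP protease Mbtps1 was -0.17 in -SG. The second protease, Mbtps2, was -0.06 in -SG, which did not pass the test, and fell in IR (-0.61, SE 0.071, adjusted p = 2.64e-06).

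Of 20 other mevalonate, isoprenoid and sterol genes tested, 13 fell and 2 rose in -SG cells (28.6% and 30% of all tested genes), with a median of -0.26. Aacs, the acetoacetyl-CoA synthetase, had 1753, 1786 and 1988 normalized counts in -SG libraries, against 3324, 3377 and 3307 in Ctr, again with no overlap (-0.86, SE 0.043, adjusted p = 6.69e-11). The retinol dehydrogenase Rdh11 fell (-0.82). The 2 that rose were Dhdds (0.37), of dolichol synthesis, and Npc1 (0.28), which exports cholesterol from lysosomes.

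Of 28 other fatty acid and glycerolipid genes tested, 12 fell and 8 rose in -SG cells (28.6% and 30% of all tested genes), with a median of -0.10. The mitochondrial citrate carrier Slc25a1, which supplies Acly, had 603, 630.4 and 666 normalized counts in -SG libraries, against 1298, 1328 and 1237 in Ctr (-1.02, SE 0.051, adjusted p = 6.59e-11). The phosphatidate phosphatase Lpin1 fell (-0.91). Cpt1a, which admits fatty acids to mitochondria for oxidation, went the other way, with 1454, 1381 and 1398 normalized counts in -SG libraries, against 302, 290.2 and 313 in Ctr. It had 2069.8, 1953 and 2061 in IR -SG libraries, against 679, 665 and 669.96 in IR. Cpt1a thus rose in -SG (2.22, SE 0.046, adjusted p = 1.73e-15), IR (1.15, SE 0.046, adjusted p = 1.47e-11) and IR -SG (2.75, SE 0.046, adjusted p = 3.88e-16). The malonyl-CoA decarboxylase Mlycd rose in -SG (0.92, SE 0.17, adjusted p = 0.000234), at low levels. It had 38.3 to 57.7 normalized counts in -SG, against 22.9 to 26.7 in Ctr.

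Some members share sequence or exons with other genes, and with reads of 36 bases their counts are less certain. Of the 36-base stretches of Acat2, 42.3% also occur in its neighbour Acat3, of Acaca 32.5%, mostly in the pseudogene Gm5182, of Fdps 27.6%, mostly in Gm43738 and Gm3571, of Idi1 18.4%, mostly in Gm13502, and of Fdft1 12.8%, in Gm6781. Gm5182 averaged 484 normalized counts in -SG and 858 in Ctr, Gm13502 101 in -SG and 280 in Ctr, and Gm3571 281 in -SG and 658 in Ctr, and these 3 means were thus lower in -SG like the genes they copy. Acat3 averaged 24.4 normalized counts in -SG and 47.4 in Ctr, far below Acat2. Of the exons of Fdft1, 18.3% lie opposite Ctsb, of Mid1ip1 25.5% opposite a predicted gene, of Scap 13.2% and of Hmgcs1 12.1% opposite other transcripts, of Fdps 26.7% on the same strand as Gm43738 and of Tm7sf2 12.1% on the same strand as Vps51. Ctsb averaged 4566 normalized counts in -SG and 4962 in Ctr, and Vps51 806 in -SG and 749 in Ctr. The part of these copies and neighbours in the members' values was not tested.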

How the data were processed

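Total RNA without ribosomal RNA was made into stranded libraries and read from both ends with 36 cycles each. After FastQC the authors used HISAT2 and TopHat for alignment to GRCm38, featureCounts for counting and DESeq2 (R 3.3.1) for differential expression; the source of the size factors was not stated. For other versions and the use of strand in counting, nothing was given in the sources used here. Signal values, as deposited, are normalized counts, from which whole reads were recovered in 100% of cases (tolerance 0.001). One fit of all 12 libraries was made in R 4.3.3 with limma 3.58.1 (intensity trend, 8 residual and 7.93 prior degrees of freedom) on log2(normalized count + 1), which understates changes of low genes, over 11663 protein-coding genes that reached 10 normalized counts in 3 or more libraries. The 6 contrasts were adjusted by the Benjamini-Hochberg method. Exon lengths, positions and shared stretches came from GENCODE M21. A member's group was described by counts and medians, with no test of the list.

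The members and lists were chosen with earlier results of these data known. Values in every library are given for Srebf1, Srebf2, Scap, Insig1, Insig2, Hmgcs1, Sqle, Fdft1, Cyp51, Acly, Acaca, Acss2, Fasn, Scd1 and Scd2 and, per contrast, for up to 3 called members by size of rise and up to 3 by size of fall. Of each further list up to 4 called genes with the largest change and up to 2 against the direction of most are named; values of some genes covered by this rule are not reported here. Mbtps1 and Mbtps2, the genes that share sequence with members, and per-library values of Idi1 and of genes of the further lists were added after their values were seen. Alternatives were pseudocounts of 0.5 and 8, no filter, a minimum mean of 100, the same total per library, TMM, quantile normalization, no intensity trend, all genes of the table, only the groups compared, the replicate number as a block, edgeR 4.0.16 and DESeq2 1.42.0 on recovered reads, and leaving out each library. The limma fit was tested on simulated data for -SG against Ctr only, with changes set in the -SG group.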

Additional observations from a re-analysis of the deposited data

Results flagged for a closer look

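The radiation effect of 14 members differed between media by the interaction test (limma, adjusted p under 0.05), that is, IR -SG against -SG less IR against Ctr on the log2 scale. Among the sterol genes and regulators the difference was 0.41 for Lss, 0.36 for Pmvk, 0.31 for Nsdhl, 0.3 for Srebf2, 0.29 for Hmgcs1, 0.29 for Mvk, 0.27 for Stard4, 0.24 for Msmo1 and 0.23 for Sqle. Among the fatty acid genes it was 0.38 for Scd1, 0.3 for Scd2, 0.29 for Fasn, 0.25 for Fads2 and 0.16 for Acly. For Hmgcs1, Sqle and Lss radiation lowered the gene in both media, and by less in -SG medium (-0.16, -0.15 and -0.13) than in complete medium (-0.45, -0.38 and -0.54). In -SG medium the fall of Hmgcs1 lost its call under 2 alternative settings (adjusted p up to 0.0535). That of Lss lost it under 4 (adjusted p up to 0.153). For Scd2 it raised the gene in -SG medium (0.13) and lowered it in complete medium (-0.17), a fall that was -0.02 and lost its call under quantile normalization (adjusted p = 0.746). All 14 genes had lower means in -SG than in Ctr, as had 35 of the 37 members. The values of -SG and Ctr also enter the interaction, so this is not a separate observation.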

How the results depend on the processing

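Over 25 alternatives, 19 of the 169 called changes of members lost their call in at least 1, 15 uncalled changes gained one, and none that was called in either fit changed sign; 34 values with no call in either fit did. With quantile normalization, only the groups compared, or DESeq2, 1 member rose in -SG against Ctr. With no intensity trend, and with the replicate number as a block (replicate block), 9 members passed the interaction test. The block took the interaction calls of Acly, Msmo1, Mvk, Pmvk and Stard4. In IR against Ctr the block gave Insig1 a call and took that of Scd1 (adjusted p = 0.0643), with the counts as before, and it changed no other call of that comparison. The numbers were not taken to pair cultures, since correlations of same-numbered libraries were 0.068, 0.025 and 0.042 for IR with Ctr (each library best with its own number) and 0, -0.081 and -0.094 for IR -SG with -SG.

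The members' median log2 fold change shifted by more than the replicate SD of 0.0192 in some settings. In -SG against Ctr it was -0.752 with pseudocount 8, -0.741 with the same total per library and -0.725 with quantile normalization. In IR against Ctr it was -0.153 with the same total and -0.138 with quantile normalization. In IR -SG against Ctr it was -0.658 with the same total, -0.728 with quantile normalization and -0.735 by DESeq2. In IR -SG against IR it was -0.587 with a mean of at least 100 and -0.538 with the same total. The causes were not tested.

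Without 1 library at a time, the median ranged from -0.797 to -0.745 in -SG against Ctr, -0.198 to -0.172 in IR against Ctr, -0.735 to -0.688 in IR -SG against Ctr, -0.591 to -0.499 in IR -SG against IR, -0.036 to 0.038 in IR -SG against -SG and 0.145 to 0.175 for the interaction. The number of members higher ranged from 1 to 2 in -SG against Ctr and from 8 to 17 for the interaction. A group left with 2 libraries was assumed to vary like the others. Genes of few counts, such as Acacb and Idi1, had the largest standard errors.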
